A study of Mus musculus with 6 samples.

Results

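The genes described here encode the core machinery of inflammatory cell death: the inflammasome sensors Nlrp3 and Aim2, the adaptor Pycard, the caspase genes Casp1, Casp4 and Casp8, the pore gene Gsdmd, and the necroptosis genes Ripk3 and Mlkl. They were chosen by symbol, and all 9 were found once each among the 57462 genes of every file. RNA was sequenced from 6 whole tumours of HM1, a mouse ovarian cancer cell line. In 3 tumours the cancer cells bore a control hairpin RNA (shControl, which the labels also call wild type in genotype and treatment), and in 3 a hairpin against ST3GAL3 (shST3GAL3, labelled as a knockdown of ST3GAL3). ST3GAL3 is an enzyme that adds sialic acid to galactose, and the study asked how its activity in tumour cells bears on the immune response to the tumour. All 6 came from what the series calls an early tumour model. The host strain, age and sex, the tumour site, the number of hairpins or clones and whether each sample of a group is a separate mouse are not stated in the labels. The p-values therefore speak only of the spread among these samples, and that spread may be technical.

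Inflammasomes are protein platforms that assemble when a sensor meets a danger signal. NLRP3 responds to membrane and ion disturbance and AIM2 to DNA in the cytosol, and both recruit caspase-1 through the adaptor ASC, the product of Pycard. Caspase-1, and caspase-11, which mouse Casp4 encodes and which senses bacterial lipopolysaccharide, cut gasdermin D. Its freed part forms membrane pores, and the resulting lytic death is called pyroptosis. In necroptosis RIPK3 phosphorylates MLKL, which breaks the plasma membrane, while caspase-8 blocks this route by cutting the RIP kinases. In tumours these genes can be active in macrophages and other leukocytes as well as in cancer cells.

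For none of the 9 genes was a difference between shST3GAL3 and shControl tumours detected. With limma, 0 of 9 passed an adjusted p of 0.05 over the 14207 genes tested, and 0 of 9 had an unadjusted p under 0.05. Over all tested genes 0.00704% passed the adjusted threshold and 13% had an unadjusted p under 0.05. For each of the 9 the groups overlapped, while 23.5% of all tested genes had no overlap. Without the tumour shST3GAL3 1, which stood apart in the content described below, 0 of 9 passed, and 1 (Mlkl) was higher without overlap, against 21.2% of all tested genes. The median log2 fold change of the 9 was 0.06, against 0.01 over all tested genes. All fold changes below are differences of log2(TPM + 1), where TPM is a relative transcript level per gene length, scaled to the library's total. The added 1 makes the change of low genes look smaller. Intervals are 95% moderated intervals from limma. Values of single tumours are given in the order 1, 2, 3 of each group, shControl before shST3GAL3. The intervals were narrow for Gsdmd, Ripk3, Casp8 and Mlkl and wide for Nlrp3 and Pycard, as the plot of fold changes shows.

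**Figure D1:**
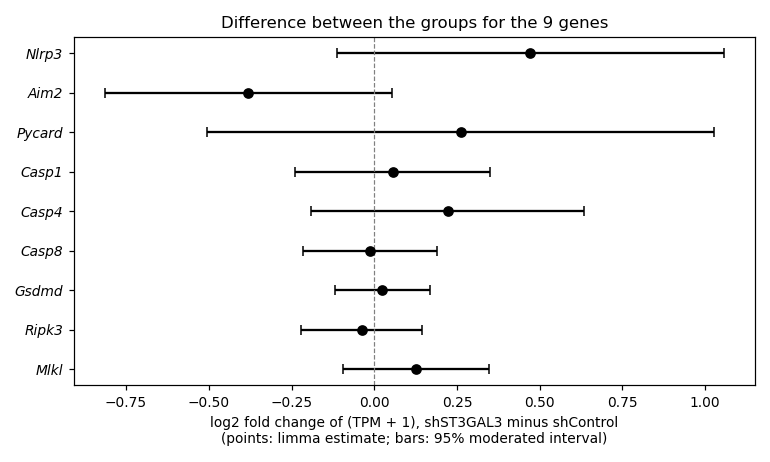
Log2 fold change of TPM + 1, shST3GAL3 minus shControl, for each of the 9 genes. Points are limma estimates and bars 95% moderated intervals over 3 libraries a group. All 9 bars include 0, and the bar of Gsdmd runs from -0.12 to 0.17 while that of Nlrp3 runs from -0.11 to 1.06.

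The library labels were checked first. St3gal3 stood between 13.79 and 14.03 TPM in the shControl and between 6.77 and 8.44 TPM in the shST3GAL3 tumours (log2 fold change -0.80, SE 0.11). The exact permutation test (two-sided) reached p = 0.1, which is the lower limit for 3 against 3 samples, and the limma adjusted p was 0.348. The libraries listed 13930 to 14762 genes at a TPM of 1 or more. Tumour shST3GAL3 1 stood apart in its stromal content, with a summed TPM of 6237 over 8 fibroblast markers, against 1176 and 1710 in the other shST3GAL3 and 626 to 1017 in the shControl tumours. Of the epithelial and ovarian markers, the keratin genes Krt8, Krt18 and Krt19 lay between 384.42 and 1303.81 TPM, Epcam and Pax8 did not exceed 1.65 TPM, and Muc16 was listed at 0 in all 6.

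The sequences before the start sites are shown for 3 of the genes whose levels follow, with 1 interferon-induced gene set beside them. RefSeq promoter windows, from 250 bases before to 50 after a start on GRCm38.p6 (not GRCm39, the build that the submitters' processing notes name), were at hand for 8 of the 9 genes, in 10 windows. They were searched on both strands for the ISRE core, bound by interferon regulatory factors (GAAA, any 2 bases, GAAA), and for kappa B letters (GGG, any 5 bases, CC, or GGAANTTCC, which can overlap each other). No window of the 8 genes held ISRE core letters, which 3.44% of all 32851 windows hold. At that share, none in 10 windows is not read as a result about these genes. Kappa B letters stood in windows of 3 genes, in the only window of Casp1 and in both windows of Casp4 and of Nlrp3. Of all windows 51% hold them. That is a share of windows and not of genes, so the 3 genes are not set against it. Of the list of interferon-induced GTPases and factors acting upstream of inflammasomes described below, 11 genes had a window. ISRE core letters stood in windows of 8 of them, and kappa B letters also in 8. These too are counts of genes, over 14 windows. The 250 bases before the start are printed 5′ to 3′, with every match to these letters in capitals.
Aim2, chr1:173420354-173420603, plus strand: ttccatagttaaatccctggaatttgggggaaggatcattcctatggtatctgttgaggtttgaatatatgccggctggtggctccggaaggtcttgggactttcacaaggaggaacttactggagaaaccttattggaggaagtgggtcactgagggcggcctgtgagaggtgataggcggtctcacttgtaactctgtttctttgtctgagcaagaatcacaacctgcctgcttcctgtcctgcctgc
Casp1, chr9:5298267-5298516, plus strand: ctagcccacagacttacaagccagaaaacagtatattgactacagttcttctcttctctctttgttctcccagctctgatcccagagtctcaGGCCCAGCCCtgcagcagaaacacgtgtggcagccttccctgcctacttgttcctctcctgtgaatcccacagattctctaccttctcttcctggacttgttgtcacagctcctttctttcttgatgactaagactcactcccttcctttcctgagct
Casp4, chr9:5308599-5308848, plus strand: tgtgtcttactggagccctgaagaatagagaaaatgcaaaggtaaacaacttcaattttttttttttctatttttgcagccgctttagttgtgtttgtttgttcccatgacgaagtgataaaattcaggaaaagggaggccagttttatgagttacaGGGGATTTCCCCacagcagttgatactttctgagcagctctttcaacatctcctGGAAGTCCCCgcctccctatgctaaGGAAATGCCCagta
Gbp2, chr3:142620413-142620662, plus strand: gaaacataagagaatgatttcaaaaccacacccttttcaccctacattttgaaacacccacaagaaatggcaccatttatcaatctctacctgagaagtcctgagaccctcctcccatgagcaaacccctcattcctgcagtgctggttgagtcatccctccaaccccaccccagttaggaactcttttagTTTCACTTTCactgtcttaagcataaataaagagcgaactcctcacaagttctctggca
In these stretches Aim2 has no match. Casp1 has a kappa B match that begins at -158, counted from the start site. Casp4 has kappa B matches that overlap from -93 and others from -39 and -14. The Gbp2 stretch holds an ISRE core from -59. A match is a description of letters and not a bound site, and whether such letters bear on the levels was not tested.

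The sensors had log2 fold changes of opposite sign, and neither passed the test. Nlrp3 (ENSMUSG00000032691, chromosome 11) gave 5.8, 6.04 and 5.05 TPM in the shControl tumours, and 12.35, 5.91 and 7.38 TPM in the shST3GAL3 tumours. Only shST3GAL3 1 and 3 lay above the control range, and shST3GAL3 2 lay within it. Averages were 5.63 ± 0.516 and 8.55 ± 3.37 TPM (± SD over n = 3), with a log2 fold change of 0.47 (SE 0.24, interval -0.11 to 1.06, limma adjusted p = 0.421). Without shST3GAL3 1 the log2 fold change was 0.20 (limma adjusted p = 0.62).

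Aim2 (ENSMUSG00000037860, chromosome 1) was the more abundant sensor by far. It gave 81.59, 66.91 and 83.67 TPM in the shControl tumours, and 44.97, 64.05 and 71.02 TPM in the shST3GAL3 tumours. Tumours shST3GAL3 1 and 2 lay below every control, and shST3GAL3 3 lay above shControl 2. The log2 fold change was -0.38 (SE 0.18, interval -0.81 to 0.05, limma adjusted p = 0.402), with means of 77.4 ± 9.14 and 60 ± 13.5 TPM. Without shST3GAL3 1 it was -0.19 (limma adjusted p = 0.567). Nlrp3 was highest and Aim2 lowest in the same library, shST3GAL3 1. Its fibroblast, endothelial and pan-leukocyte marker sums were the highest of the 6, and its Krt8, Krt18 and Krt19 levels the lowest. The part of these markers in the levels was not tested.

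Pycard (ENSMUSG00000030793, chromosome 7), the gene of the adaptor that joins sensor and caspase, varied widely in both groups. It gave 11.01, 12.66 and 8.04 TPM in the shControl tumours, and 19.52, 13.26 and 7.72 TPM in the shST3GAL3 tumours. The shST3GAL3 tumours thus included both the highest and the lowest value of all 6. The log2 fold change of 0.26 (SE 0.32, interval -0.50 to 1.03, limma adjusted p = 0.71) became -0.03 without shST3GAL3 1 and 0.58 without shST3GAL3 3. In GENCODE M21, 485 of the 3800 exon bases of Pycard overlap Gm45205 on the opposite strand. The strand setting is not given in the sources used here, so whether reads of these 485 bases were told apart is not known.

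The inflammatory caspase genes lie side by side on chromosome 9. Casp1 (ENSMUSG00000025888), whose enzyme matures interleukin-1 beta and interleukin-18, gave 49.29, 43.35 and 45.33 TPM in the shControl tumours, and 41.17, 55.92 and 47.3 TPM in the shST3GAL3 tumours. The lowest and the highest of the 6 values were again both in shST3GAL3 tumours. Its log2 fold change was 0.06 (SE 0.12, interval -0.24 to 0.35, limma adjusted p = 0.848), and -0.06 without shST3GAL3 2. Casp4 (ENSMUSG00000033538) gave 21.62, 17.04 and 23.92 TPM, then 29.52, 23.51 and 20.56 TPM. Only shST3GAL3 1 lay above the control range. The log2 fold change was 0.22 (SE 0.17, interval -0.19 to 0.63, limma adjusted p = 0.56), and 0.09 without shST3GAL3 1 or without shControl 2. Related caspase genes share sequence, and how shared reads were divided is not given in the sources used here.

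Gsdmd (ENSMUSG00000022575, chromosome 15), the pore gene on which both caspases act, was the most abundant of the 9 and the most even. It gave 105.04, 103.5 and 108.07 TPM in the shControl tumours, and 108.03, 107.06 and 107 TPM in the shST3GAL3 tumours. The highest value was 1.04 times the lowest, and all shST3GAL3 values lay inside the control range. The log2 fold change was 0.02 (SE 0.06, interval -0.12 to 0.17, limma adjusted p = 0.86), that is 0.921 to 1.12 times the control level of TPM + 1. Its SD within groups was 0.023 on the log2 scale, against a median of 0.17 over all tested genes, and 0.127% of tested genes had a smaller one. Under 2 of the 3 other scalings tried its log2 fold change was slightly negative.

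Casp8 (ENSMUSG00000026029, chromosome 1), which starts apoptosis at death receptors and holds necroptosis back, gave 53.42, 56.38 and 58.36 TPM in the shControl tumours, and 56.56, 59.34 and 50.9 TPM in the shST3GAL3 tumours. Its log2 fold change was -0.01 (SE 0.08, interval -0.22 to 0.19, limma adjusted p = 0.953), and it was 0.02 without shControl 3 and 0.05 without shST3GAL3 3. No direction can be given.

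The necroptosis kinase and its effector were at like levels in every tumour. Ripk3 (ENSMUSG00000022221, chromosome 14) gave 51.96, 57.04 and 55.53 TPM in the shControl tumours, and 50.51, 55.6 and 54.09 TPM in the shST3GAL3 tumours. All but shST3GAL3 1 lay inside the control range, and the log2 fold change was -0.04 (SE 0.08, interval -0.22 to 0.15, limma adjusted p = 0.831), and 0.00097 without shST3GAL3 1. Mlkl (ENSMUSG00000012519, chromosome 8) gave 52.43, 50.72 and 46.93 TPM, then 49.96, 59.84 and 54.51 TPM. Here shST3GAL3 2 and 3 lay above every control and shST3GAL3 1 inside their range, with a log2 fold change of 0.13 (SE 0.09, interval -0.10 to 0.35, limma adjusted p = 0.54). It was 0.19 without shST3GAL3 1, 0.06 without shST3GAL3 2, 0.08 without shControl 3 and 0.21 with library weights, and it passed in none of these. On the linear scale of TPM + 1, the interval of Ripk3 runs from 0.858 to 1.11 times the control level and that of Mlkl from 0.936 to 1.27 times. A 2-fold change in either direction lies outside the intervals of all 9 genes except Nlrp3 and Pycard, whose intervals reach a 2-fold rise.

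Exact two-sided permutation tests gave p between 0.2 and 1 for the 9 genes, where 0.1 is the smallest possible. The plot of levels by tumour shows how evenly the 4 genes Gsdmd, Casp8, Ripk3 and Mlkl lay, while Nlrp3, Pycard, Aim2 and Casp4 spread more widely. Of these, Pycard, Aim2 and Casp4 spread in both groups, and Nlrp3 mainly among the shST3GAL3 tumours. Casp1 lay between, with an SD of 3.02 TPM in shControl and 7.41 TPM in shST3GAL3 tumours.

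**Figure D2:**
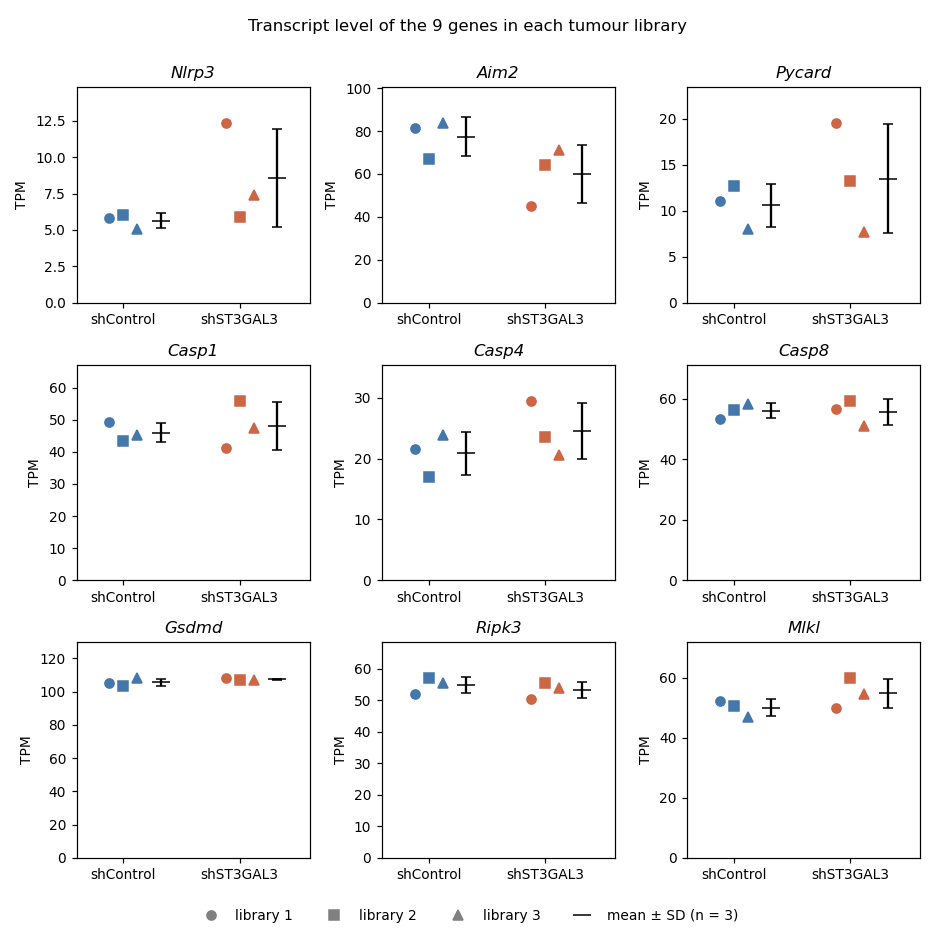
TPM of each of the 9 genes in each tumour library, with shControl in blue and shST3GAL3 in orange. Symbols mark libraries 1, 2 and 3 of each group (the numbers are not taken as pairs), and the bar is the mean ± SD of 3 libraries. The groups overlap in every panel, and shST3GAL3 1 holds the highest Nlrp3, Pycard and Casp4 and the lowest Aim2, Casp1 and Ripk3 values.

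Ordered by their mean over the 6 tumours, per gene length, the levels ran Gsdmd (106 TPM), Aim2 (68.7), Casp8 (55.8), Ripk3 (54.1), Mlkl (52.4), Casp1 (47.1), Casp4 (22.7), Pycard (12) and Nlrp3 (7.09). The range of Gsdmd lay wholly above that of Aim2, and that of Casp1 wholly above that of Casp4. All other neighbours in this order had overlapping ranges, and Ripk3 exceeded Mlkl in 3 of 6 libraries. Within each library, though, Mlkl exceeded Casp1, Casp4 exceeded Pycard and Pycard exceeded Nlrp3 in 6 of 6. The place of Pycard rests on its listed length of 3800 bases, and that of Nlrp3 on 3933.

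The pan-leukocyte and the macrophage and monocyte marker sums did not overlap between the groups, though 0 of the single markers passed the limma test. The dendritic cell and the mast cell sums did not overlap either. Overlap was seen for the T and NK cell sums (55.63 to 73.83 TPM in shControl, 73.43 to 141.53 TPM in shST3GAL3 libraries). The B and plasma cell sums overlapped too (1.02 to 2.46 and 2.15 to 144.97 TPM). All 8 pan-leukocyte markers had higher means in the shST3GAL3 tumours, 4 of them (Itgb2 among these) without overlap and 4 (Ptprc among these) with overlap, and with sums of 531 to 624 TPM in shControl and 663 to 1110 TPM in shST3GAL3 libraries. All 10 macrophage and monocyte markers had higher means too, 4 without and 6 with overlap, with sums of 1135 to 1328 and 1335 to 2426 TPM. Over all tested genes 15.7% were higher without overlap. The neutrophil sums overlapped (583 to 746 and 554 to 681 TPM). Mmp9 was the largest part of each, at 450.49 to 621.16 and 326.45 to 567.59 TPM, and 4 of the 8 neutrophil markers had higher means in the shST3GAL3 tumours. The epithelial sums, made up mostly of Krt8, Krt18 and Krt19, were 3209 to 3690 and 1782 to 3214 TPM. These 3 keratin genes had lower means in the shST3GAL3 tumours, while 5 of the 10 markers of that list had higher ones. In these whole-tumour libraries, fewer cells of a type and less RNA per cell cannot be told apart.

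Set against the summed pan-leukocyte markers of the same library, 6 of the 9 genes were lower in all 3 shST3GAL3 tumours than in any shControl tumour. These were Aim2, Casp1, Casp8, Gsdmd, Ripk3 and Mlkl, and 0 were higher. On the same ratio 42% of all tested genes were lower without overlap and 2.19% higher. The marker sum itself was higher in every shST3GAL3 library, so a gene with even TPM falls on this ratio, and nothing particular to the 9 genes is read from the count. Without shST3GAL3 1 the counts were also 6 and 0, against 42.8% and 2.96%. Gsdmd stood at 16.8%, 18.1% and 20.4% of the marker sum in shControl 1, 2 and 3 and at 9.74%, 13.3% and 16.1% in shST3GAL3 1, 2 and 3. Aim2 stood at 13.1%, 11.7% and 15.8% and at 4.05%, 7.95% and 10.7%. The groups overlapped for Nlrp3, at 0.93%, 1.06% and 0.951% and at 1.11%, 0.733% and 1.11%, with shST3GAL3 1 and 3 above the control range and shST3GAL3 2 below it, as the plot of these ratios shows. The 9 ratios of a library share 1 denominator, so they are not separate observations, and no test was made. Against the macrophage and monocyte sum 1 of the 9 (Casp8) was lower without overlap, as were 25.8% of all tested genes, and 0 were higher (2.3% of all tested genes). Against the epithelial sum 2 (Nlrp3 and Mlkl) were higher, as were 43.5% of all tested genes, and 0 were lower (0.514%).

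**Figure D3:**
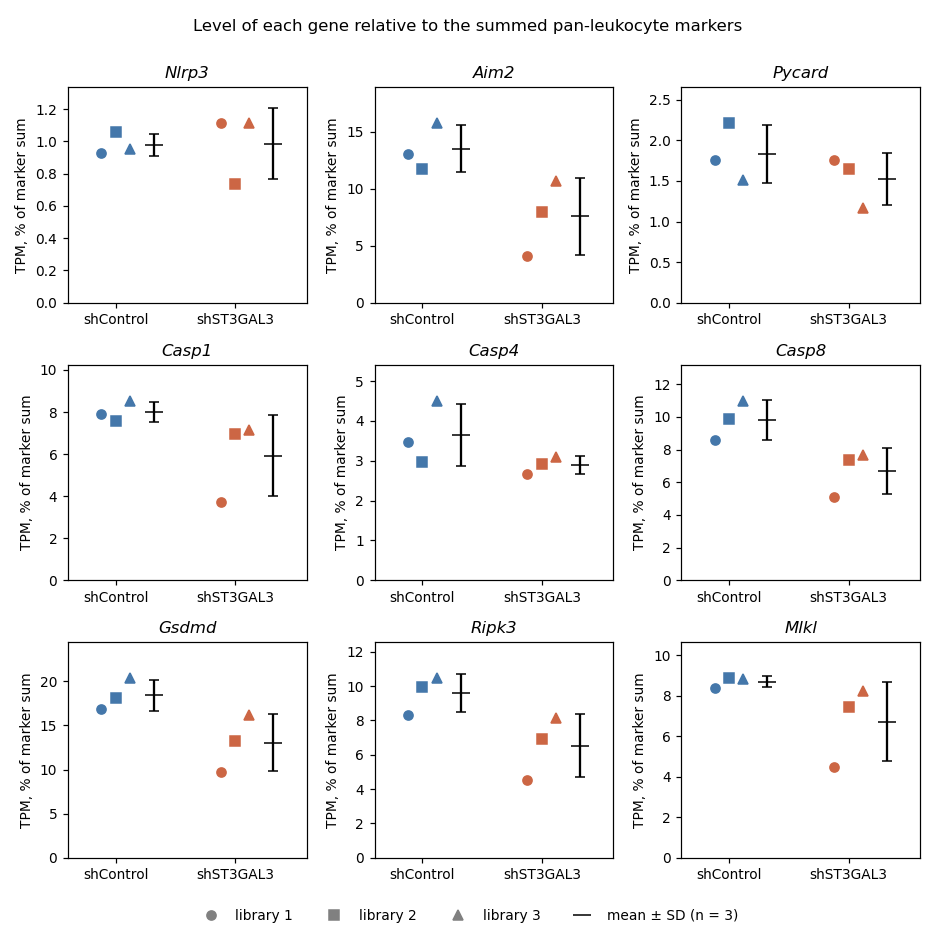
TPM of each of the 9 genes as a percentage of the summed TPM of 8 pan-leukocyte markers in the same library. Symbols mark libraries 1, 2 and 3, with shControl in blue and shST3GAL3 in orange, and the bar is the mean ± SD of 3. Aim2, Casp1, Casp8, Gsdmd, Ripk3 and Mlkl are lower in all 3 shST3GAL3 tumours, as are 42% of all tested genes on this ratio, while Nlrp3, Pycard and Casp4 overlap. The marker sum is higher in every shST3GAL3 library.

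The rest of the pathway was read from 8 lists with 97 genes, of which 81 were tested. The lists were chosen with earlier results of these data known. With limma 0 rose and 0 fell over all genes tested, and 23 had an unadjusted p under 0.05, against 13% of all tested genes. In 29 the shST3GAL3 values all lay above the shControl values and in 3 below, against 15.7% and 7.76% of all tested genes. The median log2 fold change was 0.14. The interferon-induced list held 11 of the 29, as the plot of the lists shows, and 12 of the 23. Without shST3GAL3 1 the counts were 39 and 3, against 21.2% and 9.38%.

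**Figure D4:**
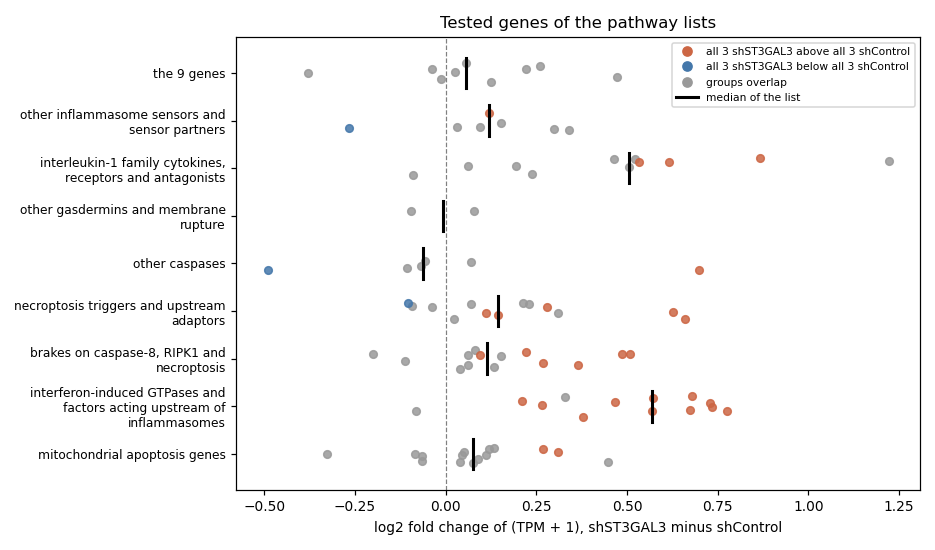
Log2 fold change of TPM + 1, shST3GAL3 minus shControl, of each tested gene in the 8 pathway lists and of the 9 genes. Orange points have all 3 shST3GAL3 values above all 3 shControl values, blue points all below, grey points overlap, and black lines are list medians. The 9 genes are all grey around a median of 0.06, and 11 of 13 genes of the interferon-induced list are orange around a median of 0.57.

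Of 14 other sensor genes and partners, 7 were tested. Without overlap, 1 was higher in the shST3GAL3 tumours and 1 lower, against 15.7% and 7.76% of all tested genes. The higher was Naip2, a receptor gene that works with Nlrc4, at 13.24, 12.95 and 13.12 TPM in the shControl and 14.44, 14.24 and 14.26 TPM in the shST3GAL3 tumours (log2 fold change 0.12, limma adjusted p = 0.517). Nlrc4, which responds to bacterial flagellin, stood at 0.39 to 0.64 TPM in shControl and at 1.33, 1.04 and 0.66 TPM in shST3GAL3 tumours, too low to be tested. The lower was Nek7, whose product is a partner of NLRP3, at 43.85 to 51.89 and 32.08 to 43.56 TPM (log2 fold change -0.27, limma adjusted p = 0.418). Mefv, which encodes pyrin, stood at 2.88 to 3.26 TPM and at 5.72, 3.63 and 3.01 TPM.

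The cytokine genes served by caspase-1 overlapped between the groups. Il1b gave 59.53, 62.47 and 59.22 TPM in the shControl tumours, and 166.2, 64.56 and 54.54 TPM in the shST3GAL3 tumours, so that the higher mean came from shST3GAL3 1. Il18 stood at 5.59 to 7.49 and 6.74 to 9.6 TPM. Il18bp, which encodes a secreted blocker of interleukin-18, had the smallest p of the 11 genes of this list, at 39.76, 22.75 and 30.75 TPM and at 59.71, 59.64 and 49.74 TPM. The groups did not overlap (log2 fold change 0.87, SE 0.20, limma adjusted p = 0.38). Of the 11 genes, 3 were higher without overlap in the shST3GAL3 tumours and 0 lower, against 15.7% and 7.76% of all tested genes. The median of the list was 0.51.

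Among the genes of membrane rupture, Ninj1, whose product tears the membrane after pores have formed, stood at 191.23 to 206.66 and 199.43 to 229.46 TPM. Gsdme, another gasdermin gene, stood at 6.23 to 6.72 and 4.57 to 7.09 TPM. They were the tested genes of 10 in this list, and the others, among them the Gsdma and Gsdmc genes, did not exceed 0.24 TPM. Gsdmd was thus the only gasdermin gene above 10 TPM in these tumours.

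Of the 13 necroptosis triggers and adaptors, 5 were without overlap and higher in the shST3GAL3 tumours and 1 lower. The shares over all tested genes were 15.7% and 7.76%. The lower gene was Cyld, at 21.94 to 22.37 and 18.12 to 21.83 TPM. Zbp1, whose product binds Z-form nucleic acid and engages RIPK3, gave 111.3, 89.42 and 104.82 TPM in the shControl tumours, and 184.93, 169.04 and 124.12 TPM in the shST3GAL3 tumours. It had the smallest p of the list (log2 fold change 0.63, SE 0.16, limma adjusted p = 0.38). Tnf and its receptor gene Tnfrsf1a were also without overlap, at 2.66 to 2.99 and 3.44 to 6.95 TPM and at 103.44 to 104.29 and 117.56 to 145.5 TPM. Ripk1, which recruits RIPK3, stood at 29.54 to 31.03 and 32.25 to 33.7 TPM, and the adaptor gene Fadd overlapped, at 6.5 to 7.46 and 6.55 to 7.89 TPM. Zbp1 thus stood about as high as Gsdmd in the controls, and its product acts directly on that of Ripk3, whose own values overlapped.

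Of the 14 genes that hold caspase-8, RIPK1 or necroptosis in check, 6 were without overlap and higher in the shST3GAL3 tumours and 0 lower. Among all tested genes these shares were 15.7% and 7.76%. Birc3, a ubiquitin ligase gene, had the smallest p, at 20.17 to 24.18 and 24.42 to 36.66 TPM (log2 fold change 0.49, limma adjusted p = 0.38). Cflar, which encodes the caspase-8 partner cFLIP, overlapped at 50.66 to 59.85 and 52.02 to 58.38 TPM.

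Most of the interferon-induced GTPases and factors that prime inflammasomes had higher values in the shST3GAL3 tumours, and none passed over all genes. Of 13 genes, 11 were without overlap and higher there (15.7% of all tested genes), and 12 had an unadjusted limma p under 0.05 (13%). The count of 11 was the same without shST3GAL3 1 (21.2% of all tested genes). This list was chosen with earlier results of these data known. Irf1 gave 211.06, 173.28 and 171.4 TPM in the shControl tumours, and 265.61, 315.79 and 246.48 TPM in the shST3GAL3 tumours (log2 fold change 0.57, SE 0.12, limma adjusted p = 0.38). Gbp5, a GTPase that assists NLRP3, stood at 15.12 to 18.62 and 22.56 to 34.18 TPM, and Gbp2 at 211.86 to 321.35 and 390.97 to 438.24 TPM. Irgb10, listed as Gm12250, whose product exposes bacterial ligands to AIM2 and caspase-11, had the smallest p, at 20.52 to 22.58 and 30.11 to 37.65 TPM (0.68, SE 0.11, limma adjusted p = 0.38). The median of this list was 0.57 and that of the 9 genes 0.06. Whether the lists differ was not tested.

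The mitochondrial apoptosis list, of a separate death route, had a median of 0.08, with 2 of 15 genes higher without overlap and 0 lower. Over all tested genes the shares were 15.7% and 7.76%, so nothing particular to this list is read from the count. Bak1, which encodes a pore protein of the mitochondrial membrane, had the smallest p, at 66.04 to 81.68 and 88.42 to 96.71 TPM (log2 fold change 0.31, limma adjusted p = 0.38).

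By the root mean square difference of log2(TPM + 1) over the 6 libraries, each gene centred on its own mean, the nearest of 8433 other genes were Tgfb1i1 for Nlrp3, Ppp3ca for Aim2, Ntpcr for Pycard, Pomp for Casp1, Car13 for Casp4, Ovca2 for Casp8, Plaa for Gsdmd, Ndufv2 for Ripk3 and Psme1 for Mlkl. The differences ran from 0.014 for Ripk3 to 0.090 for Pycard.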

How the data were processed

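The deposited values are TPM per gene, given by the authors with 2 decimals and judged from column sums between 999998.87 and 1000000.94. Without versions, fastp, HISAT and RSEM are named in the submitters' processing notes, with GRCm39 as build. Since TPM do not record how many reads were counted, the depth is unknown and no counting interval could be given. TPM is relative to the library's total.

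From these values, the 14207 genes that reached 1 TPM in 3 or more of the 6 libraries were tested on log2(TPM + 1) with limma 3.58.1 (R 4.3.3, trended variance), the group alone in the model and Benjamini-Hochberg adjustment at 0.05 over all of them. All 9 genes passed this filter. The procedure was tested on simulated data. The 9 genes and the lists were chosen with earlier results of these data known. Of the lists, the text names the genes acting with the 9 and those with the smallest p, and some others after their values were seen. Alternatives were another pseudocount, filters, scalings, library weights, a replicate block and leaving out each library. Counts of genes without overlap were also taken without shST3GAL3 1, chosen after seeing the data. Some genes of the lists and 1 of the motifs planned are not reported here.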

Additional observations from a re-analysis of the deposited data

How the results depend on the processing

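In each of the 14 alternatives 0 of the 9 genes and 0 of the pathway genes passed. Nlrp3, Aim2, Casp4 and Mlkl kept their sign throughout. Signs turned for Casp8 (0.026) and Ripk3 (0.0073) with library weights, and for Gsdmd with quantile normalization (-0.029) and once immunoglobulin, ribosomal protein and mitochondrial genes had been removed (-0.0016). Leaving out 1 library gave log2 fold changes of -0.032 to 0.58 for Pycard, -0.056 to 0.16 for Casp1, -0.061 to 0.048 for Casp8, -0.076 to 0.00097 for Ripk3, 0.061 to 0.19 for Mlkl, 0.20 to 0.68 for Nlrp3, -0.51 to -0.19 for Aim2, 0.085 to 0.34 for Casp4 and 0.011 to 0.042 for Gsdmd. The median of the 9 was 0.14 with library weights and 0.015 to 0.11 leaving out 1 library. The scalings moved the median of all tested genes from 0.01 to between -0.05 and -0.0046. Over all genes, 1 was called higher with a pseudocount of 0.1, and 5 higher and 3 lower with library weights, where St3gal3 also passed (limma adjusted p = 0.0337). Leaving out 1 library gave 0 to 2 genes called lower, with 0 without any 1 shControl library. The labels do not say whether equal replicate numbers pair the samples. The correlations of deviations were 0.014, -0.080 and 0.040 for numbers 1, 2 and 3, which cannot decide it with 3 libraries a group. With the replicate block 0 genes were called higher, 1 lower and 0 of the 9, as without it. The number of libraries, 3 a group, limits the precision.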

Other observations

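Ratios of the genes within a library were taken for 6 pairs chosen after the values were seen. The Aim2 to Nlrp3 ratio was 14.1, 11.1 and 16.6 in shControl 1, 2 and 3 and 3.64, 10.8 and 9.62 in shST3GAL3 1, 2 and 3, with no overlap (exact two-sided permutation p = 0.1, the smallest possible, and 0.6 adjusted over the 6 ratios). The Ripk3 to Mlkl ratio was 0.991, 1.12 and 1.18 and then 1.01, 0.929 and 0.992, with overlap (exact permutation p = 0.3, 0.8 adjusted). The ratios of Pycard, Casp4 and Gsdmd to Casp1 and of Ripk3 to Casp8 also overlapped (exact permutation p between 0.7 and 0.8).

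Il33, the gene of an alarmin of stromal cells, had the largest fold change of the interleukin-1 family list, with 5.68, 5.07 and 5.94 TPM in the shControl tumours, and 40.62, 14.31 and 4.61 TPM in the shST3GAL3 tumours (log2 fold change 1.22, SE 0.65, limma adjusted p = 0.431). Its values in the shST3GAL3 tumours stood in the same order as the fibroblast marker sums (6237, 1710 and 1176 TPM). The pan-leukocyte, macrophage and monocyte, T and NK cell and endothelial sums, among others, stood in this order too. The neutrophil and epithelial sums did not. The order is thus not particular to fibroblast markers, and the source of Il33 was not tested. The lowest of the 6 Il33 values was in shST3GAL3 3.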
